A study of Mus musculus with 6 samples.

Results

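Solute carriers are membrane proteins that move nutrients, ions, vitamins and metabolites across the plasma membrane and the membranes of organelles, mostly down a gradient or coupled to another ion. T cells that leave rest take up more amino acids, glucose and metals, and mitochondrial carriers link the tricarboxylic acid cycle and ATP synthesis to the cytosol. The genes described here are the protein-coding genes whose symbol has the form Slc, a number and a, with a mean of at least 5 CPM (the count scaled to the total count of the library) over the 6 libraries. The glucose and lactate transporters Slc2a1, Slc2a3, Slc16a1 and Slc16a3 were left out. Of 343 protein-coding genes with such a symbol, 115 had no read in any library, 73 had a mean above 0 and under 1 CPM, 37 had 1 to under 5 CPM and 118 reached 5 CPM, which left 114 members. All 114 passed the low-count filter of the test, among 15519 genes tested of 55536 in the table. Members were thus chosen by their mean level over both genotypes together, so the levels are a description, while the difference between genotypes was tested.

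The cells were CD4+ T cells of C57BL/6 background with the 2D2 transgene, which encodes a T cell receptor for myelin oligodendrocyte glycoprotein (MOG). The 2D2-HDAC1-cKO cells (genotype 2D2-Hdac1fl/fl-Cd4-Cre+) lacked the histone deacetylase HDAC1, and the 2D2-WT cells had the same floxed alleles without Cre. Cre driven by Cd4 acts from thymic development on, and cells from before transfer are not part of the comparison, so earlier and later differences cannot be told apart. Naive CD45.2+ donor cells were injected into CD45.1+ recipients, immunised in the footpad 18 hours later with MOG peptide in complete Freund's adjuvant, and 500 donor cells per library were sorted from popliteal lymph nodes after 4 days. There were 3 libraries per genotype (replicates 1 to 3), and 2 mice were pooled for each.

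The total count lay between 19956153 and 36307610 in HDAC1-cKO libraries and between 39036751 and 55900237 in WT libraries. Levels are given below as CPM scaled by TMM, except where FPKM is named. Hdac1 stood at 15.8 ± 1.32 CPM in HDAC1-cKO cells and 238 ± 5.06 CPM in WT cells (SD, n = 3 each), which gave a log2 fold change of -3.91 ± 0.12 (SE, edgeR test, adjusted p = 9.59e-06). All 10 T cell markers were detected and summed to 24966 to 34044 CPM in HDAC1-cKO cells and 29267 to 35070 CPM in WT cells. Of these 10, 1 had a positive and 9 a negative log2 difference, with a median of -0.27. In 5 all HDAC1-cKO libraries lay under all WT libraries, beside 11.8% of all genes tested. Cd3e and Cd2 fell in HDAC1-cKO cells, by 1.42 and 0.65 on the log2 scale (edgeR adjusted p = 0.0102 and 0.0310). These are 2 of the 10, beside 0.992% lower of all genes tested. DESeq2 and limma each called 3 of the 10 lower and 0 higher, beside 4.76% and 1.27% lower over the genes tested. The 2 CD8 markers, mostly Cd8b1, summed to 65.7 to 72.3 CPM in HDAC1-cKO cells and 45.4 to 59.4 CPM in WT cells. The 6 B cell markers, mostly Ighm, summed to 137 to 295 CPM in HDAC1-cKO cells and 70.0 to 155 CPM in WT cells. Of these 6, 5 had positive and 1 a negative log2 difference, and 0 passed in edgeR. DESeq2 called 2 of the 6 higher and limma 1. DESeq2 also called 1 CD8 marker higher, and edgeR and limma called 0. Of the 10 myeloid and dendritic cell markers, Csf1r, Clec9a and Cd14 had no read, and the sum, nearly all Cst3, was 198 to 230 CPM in HDAC1-cKO cells and 166 to 221 CPM in WT cells. Cst3 had a log2 difference of 0.23, while the other 4 tested markers of that list (Lyz2, Xcr1, Itgax and Fcer1g) had -2.24, -1.57, -0.63 and -0.25. None of the 5 passed the edgeR test, while DESeq2 and limma each called 1 lower. The sums of plasma cell (mostly Xbp1), NK cell (mostly Gzma), erythroid and stromal (mostly Pecam1) markers overlapped between genotypes. They stood at 358 to 439, 141 to 437, 0.705 to 1.31 and 58.2 to 81.5 CPM in HDAC1-cKO, against 404 to 474, 67.1 to 849, 0.644 to 2.04 and 64.2 to 99.4 CPM in WT cells. The part of these markers in the results was not tested. HDAC1-cKO replicate 2 stood apart in its dependence on GC content, and the results are given with and without it.

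Of the 114 solute carrier genes, 4 rose in HDAC1-cKO cells and 0 fell (edgeR adjusted p under 0.05), a share of 3.51% in either direction beside 1.97% of all genes tested. In the higher direction alone the background was 0.979%, and in the lower direction 0.992%. The 4 were Slc6a13, a plasma membrane transporter of GABA and taurine, Slc25a10, the mitochondrial dicarboxylate carrier, Slc48a1, a transporter of heme out of endosomes and lysosomes, and Slc17a9, the vesicular nucleotide transporter. They belong to 4 different substrate groups. Slc6a13 counts in this share only through its HDAC1-cKO level, at 26.1 CPM of the total count against 3.34 CPM in WT cells. In WT cells it lay under the 5 CPM of the rule. At an unadjusted p under 0.05, 14 members were higher and 12 lower, 22.8% of the members beside 17% of all genes tested. DESeq2 called 10 higher and 5 lower, beside 5.05% and 4.76% (9.81% in either direction) of the 14009 genes to which it gave an adjusted p. Limma on log2(FPKM + 1) called 5 higher and 0 lower, beside 1.4% and 1.27% of all genes tested (2.67% in either direction). The median log2 fold change was -0.02 over the members and -0.00 over all genes tested, and 78.1% of members and 73.7% of all genes lay within 0.5 of no change.

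For Slc6a13 and Slc25a10, the table of RefSeq promoters (GRCm38.p6) held the bases upstream of the start, shown here because these are the 2 of the 4 called genes that matched an entry. Slc6a13 had 3 entries, of which the one nearest its deposited gene start is shown. The 189 bases of Slc6a13 leave out 61 bases that lie within the deposited gene span. The capitals mark the GC box GGGCGG, a motif bound by the Sp family of transcription factors, searched on both strands.
Slc6a13, chr6:121300038-121300226, plus strand: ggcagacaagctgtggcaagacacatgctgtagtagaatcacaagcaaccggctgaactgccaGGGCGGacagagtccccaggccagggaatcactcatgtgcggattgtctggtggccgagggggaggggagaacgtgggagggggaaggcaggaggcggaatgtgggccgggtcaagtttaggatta
Slc25a10, chr11:120491587-120491836, plus strand: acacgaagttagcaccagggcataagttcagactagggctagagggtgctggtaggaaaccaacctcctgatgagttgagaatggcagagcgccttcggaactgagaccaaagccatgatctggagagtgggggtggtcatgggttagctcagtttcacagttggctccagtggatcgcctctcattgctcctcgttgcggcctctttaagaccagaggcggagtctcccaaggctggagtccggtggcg
The Slc6a13 stretch held 1 GC box and 7 CpG dinucleotides at 59.8% GC, and that of Slc25a10 held 0 GC boxes and 9 CpG dinucleotides at 56% GC. Neither held CACGTG, the E-box of the Myc and Tfe families. Over the whole windows of the 86 members with an entry, 65.1% held a GC box and 12.8% the E-box, beside 32.7% and 5.93% of the 27025 genes in the promoter table. The median number of CpG dinucleotides was 16 in members and 5 over the table, which holds genes that these cells do not use as well. For a member with several entries, the one nearest its deposited gene start was used. For the table the entry of lowest coordinate was used, so these shares and medians also differ in the choice of start. These matches describe letters in the windows and were not tested against the difference between genotypes.

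Slc6a13 had the largest fold change of the 114 members (ENSMUSG00000030108, chromosome 6, 121300227 to 121337733, plus strand, GRCm38). It stood at 22.8, 32 and 22.1 CPM in HDAC1-cKO replicates 1, 2 and 3, against 1.97, 4.02 and 4.24 CPM in WT replicates 1, 2 and 3. All 3 HDAC1-cKO libraries were far above every WT library. The means were 25.6 ± 5.55 CPM in HDAC1-cKO cells and 3.41 ± 1.25 CPM in WT cells (SD, n = 3), which gave a log2 fold change of 2.91 ± 0.32 (SE; 95% interval 2.17 to 3.66; edgeR adjusted p = 0.0102), or 7.54-fold. Per length it reached 11.3 ± 2.42 FPKM in HDAC1-cKO cells and 1.51 ± 0.559 FPKM in WT (SD, n = 3), where the median member over both genotypes had 5.60 FPKM. In WT it lay under the 5 CPM of the rule, and HDAC1-cKO alone carried it past. The call held in all 14 other settings tried, with log2 fold changes from 2.30 to 3.10 and adjusted p of at most 0.0445. Since each library is a pool of cells, more cells with the transcript and more transcript per cell cannot be told apart, here and below.

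Slc25a10 exchanges malate and succinate for phosphate across the inner mitochondrial membrane (ENSMUSG00000025792, chromosome 11, 120491840 to 120499187, plus strand). It stood at 56.8, 60.3 and 60.7 CPM in HDAC1-cKO cells and 36.9, 30.5 and 30.5 CPM in WT cells. The genotypes did not overlap, and the highest WT library was well under the lowest HDAC1-cKO library. The means were 59.3 ± 2.14 CPM in HDAC1-cKO cells and 32.6 ± 3.72 CPM in WT cells (SD, n = 3), which gave a log2 fold change of 0.86 ± 0.13 (SE; 95% interval 0.56 to 1.16; edgeR adjusted p = 0.0270). The call ended on leaving out HDAC1-cKO replicate 1, HDAC1-cKO replicate 3, WT replicate 2 or WT replicate 3 (edgeR adjusted p = 0.0759, 0.1075, 0.1125 and 0.1108), with log2 fold changes between 0.81 and 0.96 when any 1 library was left out. Gm11788 on the opposite strand covers 6.60% of its exon bases and stood at 0.0191 CPM in HDAC1-cKO cells and 0 CPM in WT cells.

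Slc48a1, also known as HRG1, returns heme from endosomes and lysosomes to the cytosol (ENSMUSG00000081534, chromosome 15, 97778520 to 97792692, plus strand). It stood at 69.4, 75.8 and 68.4 CPM in HDAC1-cKO cells and 43.6, 44.4 and 38.8 CPM in WT cells, again without overlap. The means were 71.2 ± 4.04 CPM in HDAC1-cKO cells and 42.3 ± 3.01 CPM in WT cells (SD, n = 3), which gave a log2 fold change of 0.75 ± 0.12 (SE; 95% interval 0.48 to 1.03; edgeR adjusted p = 0.0280). Hdac7, on the opposite strand, shares 1.05% of the exon bases of Slc48a1 and stood at 18.7 CPM in HDAC1-cKO cells and 16.9 CPM in WT cells. Slc17a9 loads ATP and other nucleotides into secretory vesicles and lysosomes (ENSMUSG00000023393, chromosome 2, 180725263 to 180742280, plus strand). It stood at 22.9, 23.9 and 24.7 CPM in HDAC1-cKO cells and 10.8, 13.7 and 14.3 CPM in WT cells. All HDAC1-cKO values were close together and above all WT values. The log2 fold change was 0.88 ± 0.17 (SE; 95% interval 0.50 to 1.26; edgeR adjusted p = 0.0394), from means of 23.8 ± 0.912 CPM in HDAC1-cKO cells and 12.95 ± 1.86 CPM in WT cells (SD, n = 3). Both calls ended when any 1 library other than HDAC1-cKO replicate 2 was left out. The edgeR adjusted p then ran from 0.0658 to 0.118 for Slc48a1 and from 0.0848 to 0.139 for Slc17a9.

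**Figure D1:**
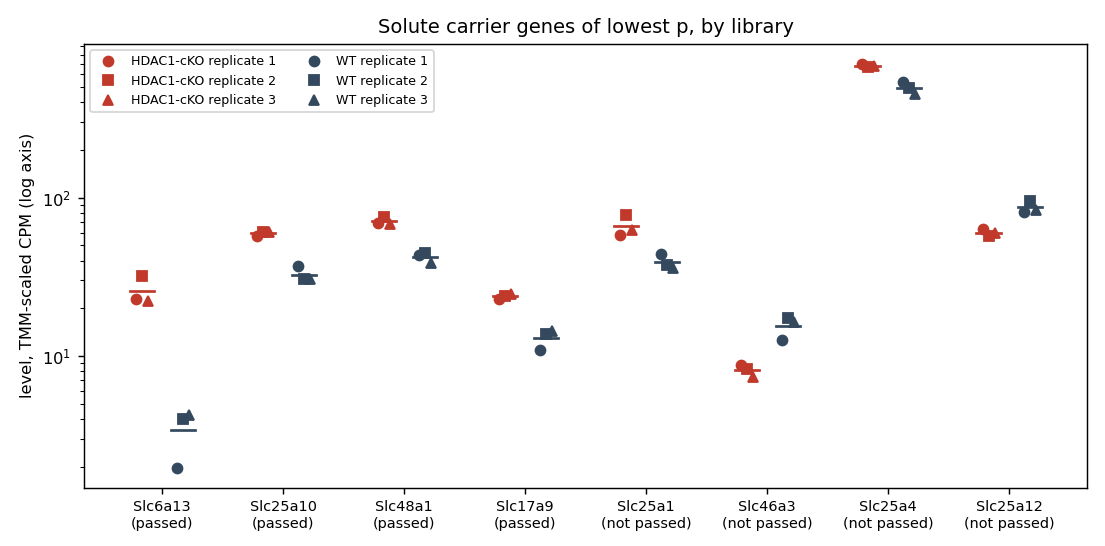
Level of the 8 solute carrier genes of lowest p in each library, in CPM scaled by TMM on a log axis, with HDAC1-cKO left of WT; symbols mark replicates and bars the mean of 3 libraries. In each of the 8 genes the 3 libraries of one genotype lie above the 3 of the other, beside 24.6% of all genes tested. The 8 were chosen by p from these same libraries, so this separation is no further result. Slc6a13 shows the widest gap, with 22.1 to 32 CPM in HDAC1-cKO cells and 1.97 to 4.24 CPM in WT cells.

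In 38 of the 114 members (33.3%) the 3 libraries of one genotype all lay above the 3 of the other, beside 24.6% of all genes tested. HDAC1-cKO was above WT in 22 of them (19.3%, beside 12.7% of all genes) and below WT in 16 (14%, beside 11.8%). Summed as CPM of the total count, as are all sums below, the members reached 7845 ± 54.7 CPM in HDAC1-cKO cells and 6888 ± 119 CPM in WT cells (SD, n = 3). On the TMM scale the sums were 7702 ± 126 CPM in HDAC1-cKO cells and 7025 ± 76.3 CPM in WT cells. Their share of the total count was 0.779 to 0.790% in HDAC1-cKO cells and 0.676 to 0.699% in WT. Of that sum the SLC25 family, mostly mitochondrial carriers, made up 58.0% in HDAC1-cKO cells and 55.4% in WT cells. The TMM factors were 1.005 to 1.03 in HDAC1-cKO libraries and 0.973 to 0.985 in WT libraries. Sums as CPM of the total count, here and below, thus set HDAC1-cKO higher beside WT than the TMM scale does.

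**Figure D2:**
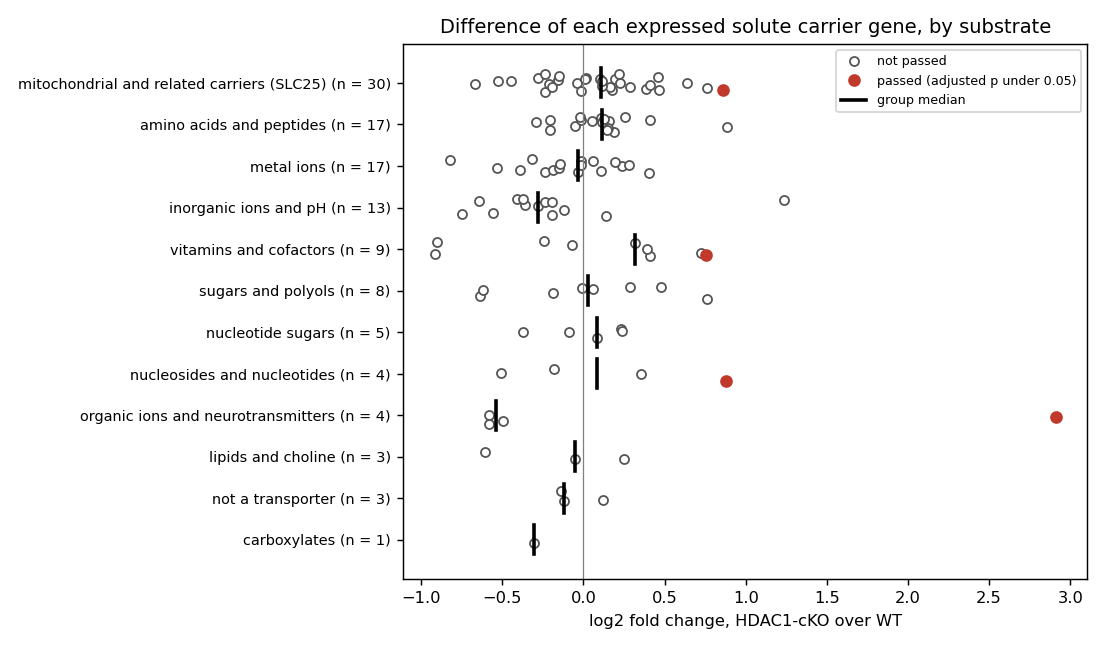
Log2 fold change of HDAC1-cKO over WT for each of the 114 members, one row per substrate group, with filled points for genes that passed the test and a black bar for the group median. The 4 filled points fall in 4 different groups, and the medians run from -0.54 for organic ions and neurotransmitters to 0.32 for vitamins and cofactors.

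The counts in this and the other substrate groups stand beside these shares of all genes tested. In edgeR 0.979% were higher and 0.992% lower, and 17% had an unadjusted p under 0.05. DESeq2 called 5.05% higher and 4.76% lower, and limma 1.4% and 1.27%. The SLC25 family, which carries metabolites across the inner mitochondrial membrane and, for a few members, the peroxisomal membrane, was the largest group with 30 genes. Slc25a10 rose, 0 fell and 29 did not pass (edgeR; 6 higher and 2 lower at an unadjusted p under 0.05; DESeq2 called 4 higher and 1 lower, limma 2 higher and 0 lower). The group's median log2 fold change was 0.11, and it ranged from 0.039 to 0.179 when any 1 library was left out. In 9 genes (30%, beside 12.7% of all genes tested) all HDAC1-cKO libraries lay above all WT libraries, and in 4 (13.3%, beside 11.8%) they lay below. The group summed to 4549.9 ± 115 CPM in HDAC1-cKO cells and 3815 ± 134 CPM in WT cells (SD, n = 3). On the TMM scale the sums were 4468 ± 163 CPM in HDAC1-cKO cells and 3891 ± 118 CPM in WT cells. Slc25a5 and Slc25a4, which exchange ADP for ATP, and the phosphate carrier Slc25a3 made up 72.0% of the group over all 6 libraries. The other 27 summed to 1231 ± 19.8 CPM in HDAC1-cKO cells and 1114 ± 47.6 CPM in WT cells (SD, n = 3).

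Slc25a5 was the most abundant member per length, at 1557 ± 84.8 FPKM in HDAC1-cKO cells and 1364 ± 64.4 FPKM in WT (SD, n = 3). Its log2 fold change was 0.19 ± 0.09 (SE, edgeR test, adjusted p = 0.342), and its processed copies Gm5560 and Gm5529 share 21.1% and 16.2% of its 50-base stretches, so the split of reads between them is uncertain. Slc25a4 followed at 347 ± 9.15 FPKM in HDAC1-cKO cells and 254 ± 20.6 FPKM in WT (SD, n = 3), and Slc25a3 at 316 ± 12.1 FPKM in HDAC1-cKO cells and 280 ± 10.7 FPKM in WT. Next in order, Slc25a11, the oxoglutarate carrier, and Slc1a5, a glutamine transporter of the plasma membrane, averaged 99.7 and 94.0 FPKM over all 6 libraries. At the other end, the inositol transporter Slc5a3 averaged 0.504 FPKM.

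Several SLC25 genes had separated genotypes without passing the test. Slc25a1, which exports citrate to the cytosol, stood at 58.1, 77.2 and 62.6 CPM in HDAC1-cKO cells and 43.7, 37.4 and 35.7 CPM in WT cells. Its log2 difference was 0.76 ± 0.15 (SE, edgeR test, adjusted p = 0.0506), and it passed in 8 of 14 other settings, DESeq2 and limma among them, with adjusted p from 0.000296 to 0.186 over all 14. It had the lowest p of the members that did not pass. Slc25a4 stood at 695, 662 and 676 CPM in HDAC1-cKO cells and 536, 493 and 452 CPM in WT cells, a log2 difference of 0.46 ± 0.10 (SE, edgeR test, adjusted p = 0.0609). Slc25a39, needed for glutathione import into mitochondria, stood at 166, 198 and 170 CPM in HDAC1-cKO cells and 133, 122 and 132 CPM in WT cells (0.47 ± 0.11, SE, edgeR test, adjusted p = 0.0773). In all 3 the lowest HDAC1-cKO library was above the highest WT library. The aspartate and glutamate carrier Slc25a12 lay the other way, at 63.1, 57.2 and 60.0 CPM in HDAC1-cKO cells and 81.1, 94.5 and 83.9 CPM in WT cells (-0.53 ± 0.12, SE, edgeR test, adjusted p = 0.0624).

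Of the 17 transporters of amino acids and peptides, 0 passed the test in edgeR, DESeq2 or limma, and 1 had an unadjusted p under 0.05. This group supplies activated T cells with glutamine, leucine and cystine. The median log2 fold change was 0.12, and 16 of the 17 lay within 0.5 of no change. Slc6a13, which carries GABA and taurine and passed the test, was placed with organic ions and neurotransmitters, while its relative Slc6a6 was placed here. The absence of calls in this group depends on that placement. The 17 transporters summed to 1009.9 ± 19.2 CPM in HDAC1-cKO cells and 919 ± 23.6 CPM in WT cells (SD, n = 3). On the TMM scale the sums were 992 ± 27.6 CPM in HDAC1-cKO cells and 937 ± 17.9 CPM in WT cells. Slc1a5 stood at 288, 273 and 271 CPM in HDAC1-cKO cells and 219, 268 and 258 CPM in WT cells (log2 difference 0.16, 95% interval -0.09 to 0.41, edgeR adjusted p = 0.531). Slc3a2, the heavy chain shared by several transporters, stood at 163 ± 9.57 CPM in HDAC1-cKO cells and 165 ± 14.9 CPM in WT cells (SD, n = 3). Its log2 difference was -0.02 (95% interval -0.27 to 0.24), so that a change of 0.5 in either direction lies outside the interval. Its partner Slc7a5, the light chain that imports leucine, had only 10.03 ± 3.96 CPM in HDAC1-cKO cells and 9.13 ± 1.66 CPM in WT cells (SD, n = 3), and the wider interval of its log2 difference ran from -0.60 to 0.86.

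The sodium-coupled amino acid transporters Slc38a1 and Slc38a2 had log2 differences of 0.15 (95% interval -0.14 to 0.44) and -0.05 (-0.41 to 0.31). Slc7a11, the cystine and glutamate exchanger, stood at 78.9, 78.5 and 80.6 CPM in HDAC1-cKO cells and 72.0, 66.7 and 70.2 CPM in WT cells. The genotypes did not overlap, but the log2 difference was 0.19 (95% interval -0.05 to 0.43, edgeR adjusted p = 0.421). Slc38a7, a lysosomal exporter of glutamine and asparagine, stood at 6.23, 8.83 and 5.64 CPM in HDAC1-cKO cells and 4.53, 2.38 and 4.35 CPM in WT cells (0.88 ± 0.32, SE, edgeR test, adjusted p = 0.207). It is the one member of the group beyond 0.5 on the log2 scale, and it lay under 5 CPM in WT cells.

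Among 17 transporters of zinc, iron, copper, manganese and magnesium, 0 passed in edgeR, with 1 higher and 2 lower at an unadjusted p under 0.05. DESeq2 called 1 higher and 1 lower, and limma called none. The group summed to 689 ± 32.2 CPM in HDAC1-cKO cells and 644 ± 24.2 CPM in WT cells (SD, n = 3), with a median log2 fold change of -0.03. On the TMM scale the sums were 677 ± 23.3 CPM in HDAC1-cKO cells and 657 ± 25.4 CPM in WT cells. The copper importer Slc31a1 stood at 78.7, 73.8 and 90.8 CPM in HDAC1-cKO cells and 61.6, 60.4 and 61.8 CPM in WT cells, so that the genotypes did not overlap (0.40 ± 0.12, SE, edgeR test, adjusted p = 0.131). The zinc importer Slc39a4 stood at 11.8, 25.4 and 19.1 CPM in HDAC1-cKO cells and 34.5, 33.2 and 31.8 CPM in WT cells (-0.82 ± 0.26, SE, edgeR test, adjusted p = 0.148). The WT libraries were close together, while the HDAC1-cKO libraries were spread, with replicate 2 the highest of the 3. Slc39a1, another zinc importer and the most abundant of the group per length, stood at 147, 239 and 166 CPM in HDAC1-cKO cells and 98.7, 184 and 171 CPM in WT cells (0.28 ± 0.26, SE, edgeR test, adjusted p = 0.664). It shares 21.8% of its 50-base stretches with the pseudogene Slc39a1-ps.

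The 13 transporters of inorganic ions and pH had the most one-sided fold changes of the larger groups, with 2 positive and 11 negative. None of the 13 passed the test in edgeR (1 higher and 3 lower at an unadjusted p under 0.05), DESeq2 called 1 higher and limma none. The median log2 fold change was -0.28, between -0.383 and -0.208 when any 1 library was left out, beside -0.00 over all genes tested. The group summed to 179 ± 8.03 CPM in HDAC1-cKO cells and 209.9 ± 15.7 CPM in WT cells (SD, n = 3), and all 3 HDAC1-cKO sums (169.99, 183 and 185 CPM) were under all 3 WT sums (196, 227 and 207 CPM). Slc20a1, the sodium-phosphate cotransporter PiT1, stood at 36.6, 23.7 and 35 CPM in HDAC1-cKO cells and 42.2, 49.4 and 48.6 CPM in WT cells (-0.56 ± 0.19, SE, edgeR test, adjusted p = 0.171). It was the most abundant of the group per length. Slc4a7, a sodium-bicarbonate cotransporter, had 17.2, 8.91 and 21.4 CPM in HDAC1-cKO cells and 24.9, 31.2 and 23.3 CPM in WT cells (-0.75 ± 0.30, SE, edgeR test, adjusted p = 0.258). In both genes no HDAC1-cKO library reached the lowest WT library. Slc4a11, which carries protons, lay the other way, at 15, 12 and 23.3 CPM in HDAC1-cKO cells and 4.08, 7.63 and 9.59 CPM in WT cells (1.238 ± 0.36, SE, edgeR test, adjusted p = 0.127).

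**Figure D3:**
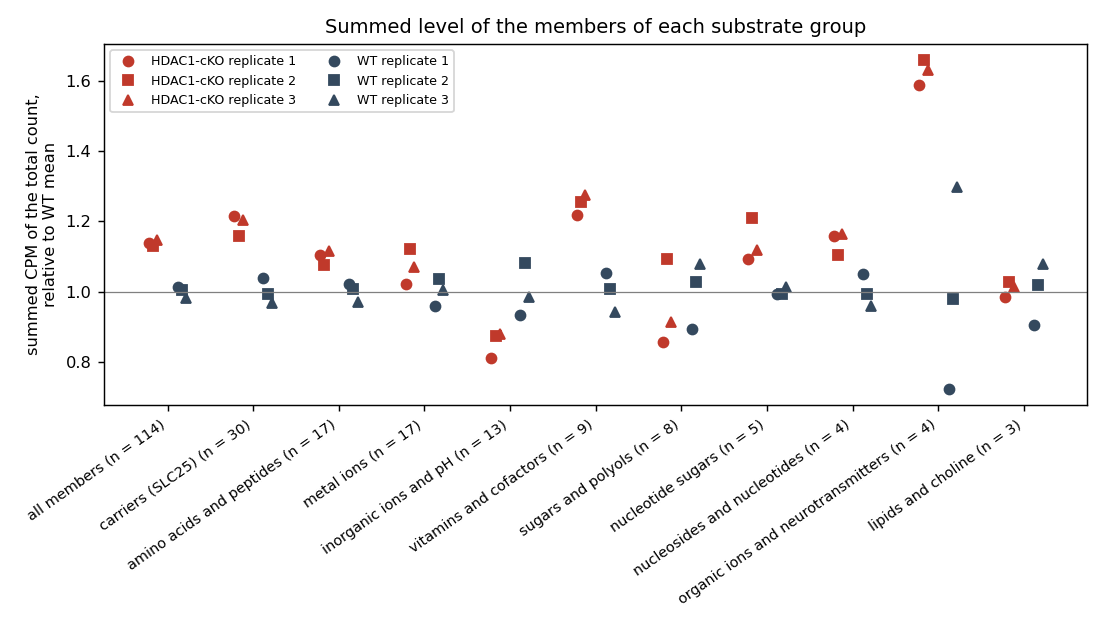
Summed CPM of the total count of all 114 members and of each substrate group of at least 3 transporters in each library, divided by the mean of the 3 WT libraries, with HDAC1-cKO left of WT and symbols for replicates. The 13 transporters of inorganic ions and pH lie below the WT mean in all HDAC1-cKO libraries. The sums of sugars and polyols and of lipids and choline lie on both sides of it. All other groups shown, and the 114 members together, lie above it in all HDAC1-cKO libraries. This scale sets HDAC1-cKO higher beside WT than the TMM scale does.

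The 9 transporters of vitamins and cofactors spread widely, with 2 higher and 2 lower at an unadjusted p under 0.05. Slc48a1 rose and 0 fell (edgeR; DESeq2 called 1 higher and 1 lower, limma 1 higher and 0 lower). The group summed to 192 ± 4.45 CPM in HDAC1-cKO cells and 154 ± 8.58 CPM in WT cells (SD, n = 3). On the TMM scale the sums were 189 ± 2.77 CPM in HDAC1-cKO cells and 157 ± 7.80 CPM in WT cells. Slc48a1 alone made up 72.6 CPM of the total count in HDAC1-cKO cells and 41.5 CPM in WT cells. Of the 9 genes, 5 had positive and 4 negative log2 differences. Slc46a3, a lysosomal transporter of the folate transporter family, had the most negative fold change of all members. It stood at 8.80, 8.32 and 7.35 CPM in HDAC1-cKO cells and 12.6, 17.3 and 16.4 CPM in WT cells, without overlap (-0.92 ± 0.20, SE, edgeR test, adjusted p = 0.0592). It passed with DESeq2, with the GC offsets alone or with length, and with both other filters, at adjusted p from 0.000791 to 0.0493. The folate carrier Slc19a1 stood at 45.4, 44.2 and 51.1 CPM in HDAC1-cKO cells and 42.3, 32.1 and 31.5 CPM in WT cells (0.41 ± 0.16, SE, edgeR test, adjusted p = 0.231), and the biotin and pantothenate transporter Slc5a6 at 5.09, 5.59 and 8.67 CPM in HDAC1-cKO cells and 4.00, 2.44 and 5.24 CPM in WT cells.

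Of the 8 transporters of sugars, sugar phosphates and polyols, 0 passed in edgeR or limma, while 2 were lower at an unadjusted p under 0.05 and DESeq2 called 2 lower. Slc37a4, which moves glucose 6-phosphate into the endoplasmic reticulum, stood at 9.998, 15.2 and 10.7 CPM in HDAC1-cKO cells and 18.1, 18.2 and 18.9 CPM in WT cells (-0.62 ± 0.20, SE, edgeR test, adjusted p = 0.156). Its relative Slc37a3 stood at 23.2, 25.2 and 18.8 CPM in HDAC1-cKO cells and 32.6, 31.9 and 39.9 CPM in WT cells (-0.64 ± 0.17, SE, edgeR test, adjusted p = 0.0994). Both had every HDAC1-cKO library under every WT library. The most abundant of the group per length was Slc50a1, a sugar transporter related to the SWEET proteins of plants, at 47.3 ± 10.9 FPKM in HDAC1-cKO cells and 54.1 ± 7.21 FPKM in WT (SD, n = 3). The glucose transporter Slc2a3, left out by the rule, fell to 11.3 ± 3.95 CPM in HDAC1-cKO, against 35.3 ± 7.64 CPM in WT cells (SD, n = 3; log2 fold change -1.65 ± 0.28, SE, edgeR test, adjusted p = 0.0334).

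The 5 transporters of nucleotide sugars, which feed glycosylation in the Golgi, had 0 genes past the test in edgeR, DESeq2 or limma and 0 at an unadjusted p under 0.05. The most abundant per length, Slc35a4, stood at 252, 321 and 252 CPM in HDAC1-cKO cells and 239, 229 and 236 CPM in WT cells (0.23 ± 0.12, SE, edgeR test, adjusted p = 0.398), and Slc35a5 at 38.9, 17.1 and 30.2 CPM in HDAC1-cKO cells and 30.6, 43.6 and 37.1 CPM in WT cells (-0.37 ± 0.29, SE, edgeR test, adjusted p = 0.581). Among 4 transporters of nucleosides, nucleobases and nucleotides, Slc17a9 rose and 0 fell (edgeR; 2 higher and 1 lower at an unadjusted p under 0.05; DESeq2 called 2 higher and limma 1). The nucleoside transporter Slc29a1 stood at 133, 123 and 129 CPM in HDAC1-cKO cells and 110, 94.6 and 96.9 CPM in WT cells, without overlap (0.35 ± 0.11, SE, edgeR test, adjusted p = 0.143).

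Slc6a13 shared its group of organic ions and neurotransmitters with 3 genes whose fold changes were negative. In edgeR, DESeq2 and limma alike 1 gene was called higher and 0 lower. Slc18a2, the vesicular monoamine transporter VMAT2, stood at 4.88, 3.37 and 5.24 CPM in HDAC1-cKO cells and 5.31, 8.10 and 6.74 CPM in WT cells (-0.58 ± 0.27, SE, edgeR test, adjusted p = 0.327). Slc22a15 stood at 4.51, 3.29 and 4.85 CPM in HDAC1-cKO cells and 5.70, 5.43 and 7.74 CPM in WT cells (-0.58 ± 0.26, SE, edgeR test, adjusted p = 0.312). In both, all HDAC1-cKO values lay under all WT values, close to the threshold of the rule. The group median was -0.54, while its summed level was 42.3 ± 0.927 CPM in HDAC1-cKO cells and 26.025 ± 7.49 CPM in WT cells (SD, n = 3). Of these sums Slc6a13 alone made up 26.1 CPM of the total count in HDAC1-cKO cells and 3.34 CPM in WT cells. Of 3 transporters of lipids and choline, 0 passed in edgeR, DESeq2 or limma and 0 had an unadjusted p under 0.05. Slc44a2, a choline transporter-like protein and the most abundant of them per length, had 39.6 ± 1.21 FPKM in HDAC1-cKO cells and 41.2 ± 4.10 FPKM in WT (SD, n = 3). Slc10a7 and Slc10a3, of the bile acid transporter family, had log2 differences of -0.60 ± 0.28 and 0.25 ± 0.19 (SE, edgeR test, adjusted p = 0.333 and 0.583), and Ubl4a shares 12.8% of the exon bases of Slc10a3 on the same strand. The only carboxylate transporter among the members, Slc16a6, had a log2 difference of -0.31 ± 0.17 (SE, edgeR test, adjusted p = 0.425), and Amz2 covers 21.5% of its exon bases on the opposite strand. Of the members, 3 encode proteins that are not transporters despite their symbols (Slc9a3r1, Slc7a6os and Slc4a1ap), and 0 of these passed in edgeR, DESeq2 or limma, with 0 at an unadjusted p under 0.05.

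The choice of members depends on a threshold. Just inside it were Slc5a6, Slc22a15 and Slc39a7 at 5.19, 5.23 and 5.27 CPM of the total count, and just outside it Slc12a4, Slc27a1 and Slc39a14 at 4.87, 4.86 and 4.55 CPM. On that scale 3 members lay under 5 CPM in HDAC1-cKO only and 5 in WT only. Slc6a13, at 26.1 CPM in HDAC1-cKO cells and 3.34 CPM in WT cells, was the one called gene among these 8. Of the 106 members with at least 5 CPM in each genotype, 3 rose and 0 fell, beside 0.979% and 0.992% of all genes tested. Under the threshold, 59 genes were tested, of which 1 rose and 0 fell, beside the same shares. That gene was Slc25a23, a calcium-regulated carrier of ATP and magnesium, at 2.26 ± 0.247 CPM in HDAC1-cKO cells and 0.393 ± 0.135 CPM in WT cells (SD, n = 3; log2 fold change 2.51, edgeR adjusted p = 0.0314). Atraid covers 9.92% of the exon bases of Slc5a6 on the opposite strand and stood at 64.8 CPM in HDAC1-cKO cells and 62.2 CPM in WT cells. Without strand, reads from that part of Slc5a6 cannot be told from those of Atraid. Gm20427, on the same strand, covers 80.7% of Slc39a7.

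The level of many members in HDAC1-cKO replicate 2 differed from that in the other HDAC1-cKO libraries along their GC content. Across 4953 well-expressed genes, the Pearson correlation between GC content and its departure from the 6-library mean was 0.641, where the other 5 libraries had -0.322 to -0.068. Transcripts of the mitochondrial genome made up 0.922% of its counts and 1.34 to 1.67% in the others. Across the 114 members, which share these libraries, r was 0.546 in this library and -0.207 to -0.004 in the others. It had the lowest level of all 6 libraries in 37 members (32.5%, beside 26.3% of all genes tested). The highest level was in it in 22 members (19.3%, beside 26.1% of all genes tested). The carnitine transporter Slc22a5, the nucleotide sugar transporter Slc35a3 and the ATP-magnesium carrier Slc25a24 were lower in it than in the mean of replicates 1 and 3, by a log2 difference of -1.36, -1.33 and -1.27. The endosomal sodium-proton exchanger Slc9a9 was higher in it, by 1.06. Transcripts of Slc22a5, Slc35a3 and Slc25a24 had 49.8, 38.8 and 42.5% GC and that of Slc9a9 47.6%, beside a median of 49.5% over the members. Slc22a5 and Slc9a9 thus lay against the GC trend. Slc22a5 shares 26.1% of its 50-base stretches with Slc22a21, so its reads may be split with that gene.

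**Figure D4:**
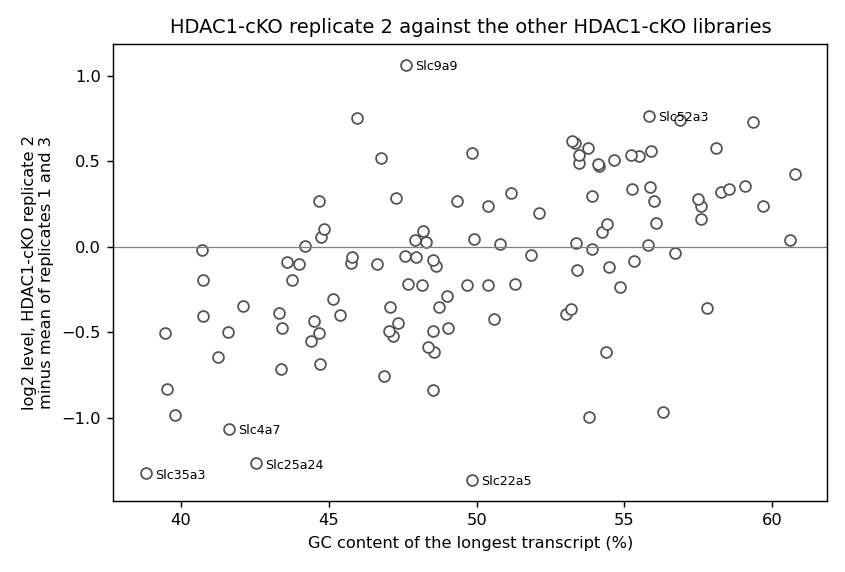
Difference in log2 level between HDAC1-cKO replicate 2 and the mean of HDAC1-cKO replicates 1 and 3 for each of the 114 members, against the GC content of the longest transcript in percent. Points run upward with GC content, and Slc22a5, Slc35a3 and Slc25a24 are the lowest at -1.36, -1.33 and -1.27.

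Without this library, 6 members were higher and 5 lower in HDAC1-cKO, beside 1.87% and 2.62% of all genes tested (4.48% in either direction). The 4 called genes remained, and Slc25a1 (log2 fold change 0.62, edgeR adjusted p = 0.0419) and Slc25a4 (0.47, edgeR adjusted p = 0.0349) joined them. The 5 lower genes were Slc52a3, a riboflavin transporter, at -1.25, Slc39a4 at -1.12, Slc9a9 at -0.85, Slc37a4 at -0.84 and Slc25a12 at -0.50 (edgeR adjusted p = 0.0491, 0.0370, 0.0377, 0.0336 and 0.0466). In Slc9a9, Slc52a3, Slc37a4 and Slc39a4, replicate 2 was the highest of the HDAC1-cKO libraries. In Slc9a9, for example, the HDAC1-cKO libraries stood at 13.6, 29.8 and 14.5 CPM, against 21.6, 26.7 and 26.9 CPM in WT cells. After a correction of the counts for the GC trend in each library, 6 members were higher and 2 lower, beside 1.62% and 1.53% of all genes tested (3.14% in either direction), and Slc46a3 and Slc25a12 were the lower ones. Transcript length was also correlated with the departure from the 6-library mean, over the same 4953 genes. WT libraries had r from 0.098 to 0.259. Only HDAC1-cKO replicate 2 had a strongly negative r, at -0.317. Replicate 1 of that genotype had 0.022 and replicate 3 had -0.023, both under the lowest WT value. Replicate 2 is part of the mean, and a length trend of genotype apart from this library was not tested. The members' transcripts had a median length of 3621.5 bases, beside 2667 bases over all genes tested, and those of the inorganic ion transporters 4852 bases. With GC content and length both removed, the median log2 fold change of the inorganic ion transporters was -0.24, that of the SLC25 genes 0.07 and that of the vitamin transporters 0.37, and the 4 called genes still passed. In that setting 6 members were higher and 1 lower, beside 1.64% and 1.44% of all genes tested (3.07% in either direction).

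**Figure D5:**
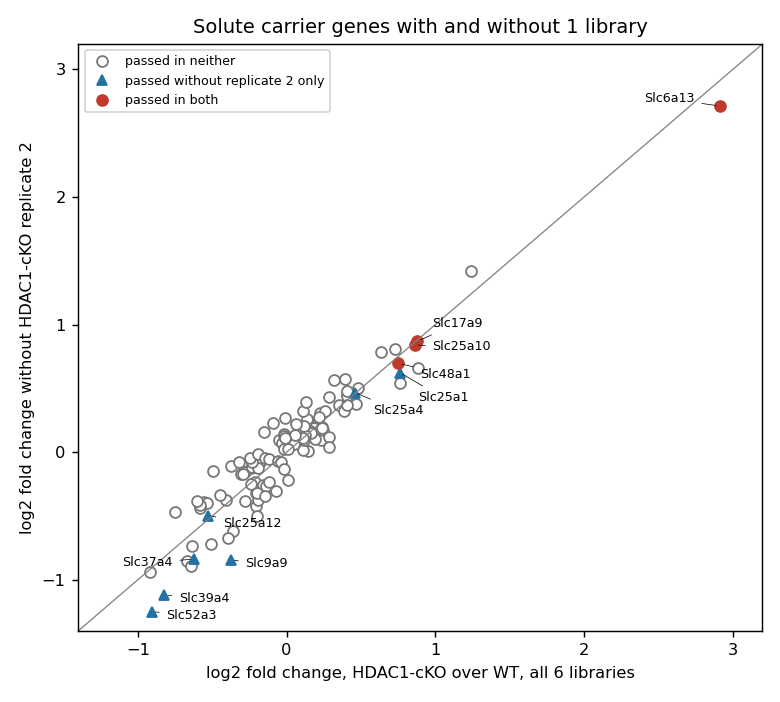
Log2 fold change of HDAC1-cKO over WT of each of the 114 members with all 6 libraries (horizontal axis) and without HDAC1-cKO replicate 2 (vertical axis), with the line of equality. The 4 genes that passed in both settings lie near the line, and 7 more passed only without that library, from Slc52a3 at -1.25 to Slc25a1 at 0.62 on the vertical axis.

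Genes that work beside these transporters differed in few cases. The counts of the lists below stand beside 0.979% higher and 0.992% lower of all genes tested in edgeR. At an unadjusted p under 0.05 the share was 17%. DESeq2 called 5.05% higher and 4.76% lower, and limma 1.4% and 1.27%. Of 20 tested solute carrier genes with symbols of another form, 1 rose and 0 fell (edgeR; 1 higher and 1 lower at an unadjusted p under 0.05; DESeq2 called 1 in each direction, limma 1 higher). It was Slc35f5, at 8.46 ± 1.04 CPM in HDAC1-cKO cells and 2.08 ± 0.727 CPM in WT cells (SD, n = 3; log2 fold change 2.02 ± 0.30, SE, edgeR test, adjusted p = 0.0250). Of 16 genes of iron handling, 1 rose and 0 fell (edgeR; 3 higher and 1 lower at an unadjusted p under 0.05; DESeq2 called 3 higher, limma 1). Aco1, the cytosolic aconitase that doubles as iron regulatory protein, rose to 32.6 ± 3.06 CPM in HDAC1-cKO, against 17.9 ± 2.33 CPM in WT cells (SD, n = 3; log2 fold change 0.87 ± 0.16, SE, edgeR test, adjusted p = 0.0370). The list medians were -0.04 and 0.08.

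In the lists of 40 transporters with other names, 32 genes of amino acid sensing by mTORC1, 29 genes of ATF4 and the amino acid response, 4 transporter chaperones and 2 genes of the zinc response, 0 passed in edgeR, with 9, 3, 6, 0 and 0 at an unadjusted p under 0.05. These were 22.5%, 9.38%, 20.7%, 0% and 0% of the lists, beside 17% of all genes tested. DESeq2 called 0 higher and 3 lower among the transporters with other names, 1 higher among the mTORC1 genes, 2 higher and 1 lower among the ATF4 genes, and none in the other 2 lists. Limma called 1 transporter with another name lower and none in the other 4 lists. The medians were 0.03, 0.10, 0.14, 0.09 and -0.14 on the log2 scale. Asns, the asparagine synthetase and a target of ATF4, had the lowest p of these lists apart from the transporters, at 5.05 ± 1.73 CPM in HDAC1-cKO cells and 15.2 ± 5.85 CPM in WT cells (SD, n = 3; log2 difference -1.60 ± 0.37, SE, edgeR test, adjusted p = 0.0731). Bsg, the chaperone of lactate transporters, had 499 ± 35.2 CPM in HDAC1-cKO cells and 477 ± 22.4 CPM in WT cells (SD, n = 3).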

How the data were processed

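For 55536 genes and 6 libraries, the authors deposited raw counts of reads (whole numbers without normalization) and, in a further table, FPKM. Per the labels' protocols, Smart-seq2 cDNA was tagged by transposase (Nextera XT, which keeps no strand) and read as single reads of 50 bases. STAR 2.5.2b, Picard 2.19.2, R 3.6.1 and DESeq2 1.24.0, with the builds GRCm38/mm10 and GRCh38/hg38, are named per the submitters' processing notes; the read counter is not given in the sources used here. FPKM, by definition per kilobase of gene, served to set levels of different genes side by side.

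Genes were kept with filterByExpr (15519 genes), scaled by TMM and tested on counts by edgeR 4.0.16 (quasi-likelihood F test, robust, two-sided, R 4.3.3), with Benjamini-Hochberg adjustment over all genes tested and a threshold of 0.05. Levels are CPM on TMM-scaled totals, and sums over members are CPM of the total count. Standard errors are the log2 fold change divided by the square root of F, and intervals are 95%. On simulated counts for these 15519 genes with 200 changed, 40.2% of 2-fold and 72.0% of 4-fold changes were recovered, and 5.98% of calls were false. The simulated counts held no GC or length trend, and the changed genes were drawn from all levels. These shares therefore need not hold for the real libraries or for the members. DESeq2 1.42.0, limma 3.58.1 on log2(FPKM + 1), other scalings and filters, GC and length offsets and the removal of each library served as alternatives.

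Solute carrier genes were taken by symbol and by a mean of at least 5 CPM, and substrate groups from family and known substrate. The members, groups and other gene lists were chosen with earlier results of these data known; Slc4a1ap was moved out of the transporters after the names of the members were seen. The naming rule took the called members, in each group the members of lowest p up to 2 and the one of highest mean FPKM, the genes next to the threshold, and the called genes of other lists. All other genes named were chosen after their values were seen. Overlaps, GC content and lengths came from GENCODE M21. Python 3.11.15 with matplotlib 3.10.9 drew the figures. Some members are counted in the totals and not reported here by name.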

Additional observations from a re-analysis of the deposited data

How the results depend on the processing

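Over the alternatives tried, the call of Slc6a13 held throughout, and none of the 4 called genes changed sign. Membership from 2 CPM (138 genes) or 10 CPM (87 genes) on gave the same 4 higher and 0 lower members. With DESeq2, 707 genes were higher and 667 lower over all genes and 10 higher and 5 lower among the members. An adjusted p under 0.1 gave 405, 413, 7 and 3, GC offsets 251 and 237 with 2 lower members, and GC and length offsets 254 higher genes with 1 lower member. No low-count filter gave 243 lower genes and 1 lower member, Slc46a3. A minimum of 10 CPM in 3 libraries gave 2 lower members, Slc46a3 and Slc25a12. Among the higher members, Slc25a1 joined the 4 called genes in both settings, and Slc25a4 joined them under the 10 CPM minimum. The share over all genes is not given beside the member counts of these 2 settings. Leaving out any 1 library gave 16 to 290 higher and 13 to 406 lower genes, and 1 to 6 higher and 0 to 5 lower members. The replicate numbers did not pair the libraries (correlations of deviations 0.206, -0.004 and -0.155). With the replicate block 34 genes were higher, 31 lower and 1 member, Slc6a13, higher.

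The median log2 fold change over the members was 0.0121 with GC offsets, 0.012 with GC and length offsets, -0.037 with no filter and -0.057 to 0.052 without 1 library. GC offsets gave 0.0886 for amino acids and 0.153 for nucleotide sugars, and limma 0.0604 for amino acids. GC and length offsets gave 0.131 for sugars, 0.138 for nucleotide sugars and -0.000212 for lipids. The 10 CPM filter left 5 vitamin transporters at -0.0571, 2 of lipids at 0.109 and 1 of organic ions at 2.93. Without 1 library the medians ran from 0.039 to 0.179 for SLC25, 0.024 to 0.141 for amino acids, -0.134 to -0.019 for metals, -0.383 to -0.208 for inorganic ions, 0.158 to 0.442 for vitamins, -0.023 to 0.114 for sugars, 0.044 to 0.126 for nucleotide sugars, 0.045 to 0.155 for nucleosides, -0.697 to -0.208 for organic ions and -0.126 to 0.010 for lipids. The causes were not tested. With 3 libraries per genotype of pooled mice and unequal depth, a gene that did not pass is not shown to be unchanged.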
